A study of Mus musculus with 6 samples.

Results

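The 8 nonclassical MHC class I genes H2-Q4, H2-Q6, H2-Q7, H2-Q10, H2-T22, H2-T23, H2-M3 and Cd1d1 were chosen by name, and all 8 were among the 29781 genes listed across the libraries. Single-cell RNA-seq had been made from tumours that grew in the pancreas of 6 wild-type C57BL/6J mice after implantation of KPC cells, a mouse pancreatic cancer line. Of these mice, 3 had received IgG and 3 an antibody against mouse VSIG4 (clone label #44), an immune checkpoint molecule of the B7 family found on macrophages, and tumours were taken at day 11. Every library came from a separate mouse, so that mice are the replicates. The labels name no dose, schedule, age or sex. A grafted line stands for 1 tumour source, and the host cells are those of a mouse with an intact immune system.

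Classical class I molecules (H2-K and H2-D in C57BL/6 mice) show peptides to CD8 T cells and are found on nearly all nucleated cells, bound to beta-2-microglobulin. The nonclassical relatives vary little between individuals, are often made by fewer cell types and show a narrow set of ligands to specialised receptors. H2-T23 encodes Qa-1, which is recognised by the NK cell receptor CD94/NKG2A. H2-Q6 and H2-Q7 encode Qa-2 molecules, H2-Q10 a form best known as a secreted product of the liver, and H2-T22 a ligand of some gamma-delta T cells. H2-M3 shows formylated bacterial peptides, and Cd1d1 encodes CD1d, which shows lipids to NKT cells.

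Depth ranged from 26606234 to 47221033 UMIs (counted molecules) per library, and 47603 of 47794 barcodes were kept, with a median of 2127 to 2703 UMIs. Levels are given on the CPM scale, the UMIs of a gene relative to all UMIs of one class in one library, and are compared between classes, not between genes. In 3 libraries (IgG 2, IgG 3 and anti-VSIG4 3) 15.8%, 42.7% and 4.91% of cells were nucleus-like, with a high share of UMIs from very long genes. In IgG 1, anti-VSIG4 1 and anti-VSIG4 2 this share was 0.433%, 0.422% and 0.216%. Serial barcode names recurred between libraries (11691 names), so shared cells could not be told from shared names. Cells were clustered into classes with the class I genes left out, so that levels of the 8 genes did not build the classes. Each class name means cells like that type, and in the 10 classes tested between 5 of 6 and all of the fixed markers, or 8 of 10 for monocyte/macrophages and 7 of 8 for neutrophils, were highest in the class they mark. The plasma cell class held neutrophil-type RNA as well, with summed neutrophil markers (8 of 8 found) from 1355 to 72224 CPM across libraries.

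Of the 8 genes, 7 lie on chromosome 17 in the H2 region and Cd1d1 on chromosome 3 (GRCm38, GENCODE annotation). H2-Q4, H2-Q6, H2-Q7 and H2-Q10 follow each other on the plus strand, at chr17:35379617-35385290, chr17:35424850-35430055, chr17:35439155-35443773 and chr17:35470089-35474563. H2-T23 is at chr17:36029773-36032855 and H2-T22 at chr17:36037128-36042747, both on the minus strand. H2-M3 is at chr17:37270220-37274484 on the plus strand and Cd1d1 at chr3:86995834-86999441 on the minus strand. These positions are those of the reference annotation, since no build is named for the deposited counts in the sources used here.

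Sequence shared with other genes, in part with near-identical relatives, limits how well reads can be assigned. Over the last 500 bases of the annotated protein-coding transcripts, 42.9% of 50-base windows of H2-Q6 also occurred in another gene, 23.9% in H2-Q7. For H2-T22 58.9% of windows occurred in H2-T10. That gene was looked for and is not among the genes listed across the libraries, so counts of H2-T22 may hold both. The share was 11.8% for H2-Q7, mostly with H2-Q5, which is also not among the genes listed across the libraries. It was 33.7% for H2-Q4 and 38.1% for H2-T23. The gene that shared most windows was Gm43321 for H2-Q4 (18.4%) and Rab33b for H2-T23 (17.3%). In H2-Q10 0.380% of windows were shared, and none were in H2-M3 and Cd1d1. With 100-base windows the shares were 23.8% for H2-Q6, 21.1% for H2-T22, 9.73% for H2-T23, 6.48% for H2-Q4 and 2.9% for H2-Q7. Levels of H2-T22, H2-Q6, H2-T23, H2-Q4 and, to a lesser degree, H2-Q7 are therefore uncertain as gene-specific values.

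The sequences just before the start sites are shown because the genes differ in where they were found and because class I genes are known to share a compact control region of an NF-kB site, an interferon element and a Y box. RefSeq promoter windows (build GRCm38.p6) matched 7 of the 8 genes, the exception being Cd1d1. The 250 bases before the RefSeq start are printed 5′ to 3′ in the direction of transcription for 5 of them, the 4 Q genes and H2-T23, with the classical gene H2-D1 for comparison. Capitals mark matches, on either strand, to GGGANTCCC (the NF-kB site of enhancer A), GAANNGAAA or GAAANNGAA (interferon element cores), TGACG (the core of the X2 box) and CCAAT (the core of the Y box). The windows are chr17:35262844-35263093, chr17:35379367-35379616, chr17:35424600-35424849, chr17:35438905-35439154 and chr17:35469839-35470088 on the plus strand and chr17:36032702-36032951 on the minus strand. For H2-T23 the RefSeq start lies inside the gene as placed above from GENCODE (chr17:36029773-36032855). Part of its window, with the marked matches, therefore overlaps the gene in that annotation.
H2-D1: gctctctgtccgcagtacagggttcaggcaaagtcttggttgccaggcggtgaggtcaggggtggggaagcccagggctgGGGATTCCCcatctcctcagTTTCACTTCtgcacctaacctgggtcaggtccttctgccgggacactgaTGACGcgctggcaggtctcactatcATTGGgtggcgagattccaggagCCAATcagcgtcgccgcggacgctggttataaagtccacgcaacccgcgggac
H2-Q4: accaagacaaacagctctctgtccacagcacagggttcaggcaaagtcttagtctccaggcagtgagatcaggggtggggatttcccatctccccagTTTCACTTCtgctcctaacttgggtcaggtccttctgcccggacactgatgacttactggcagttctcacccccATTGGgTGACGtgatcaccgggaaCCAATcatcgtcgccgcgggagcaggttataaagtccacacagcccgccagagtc
H2-Q6: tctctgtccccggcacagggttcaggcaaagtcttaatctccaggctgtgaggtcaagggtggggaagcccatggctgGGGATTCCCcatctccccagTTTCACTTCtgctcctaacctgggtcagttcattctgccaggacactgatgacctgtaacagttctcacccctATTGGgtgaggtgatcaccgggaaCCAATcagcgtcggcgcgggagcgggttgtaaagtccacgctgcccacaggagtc
H2-Q7: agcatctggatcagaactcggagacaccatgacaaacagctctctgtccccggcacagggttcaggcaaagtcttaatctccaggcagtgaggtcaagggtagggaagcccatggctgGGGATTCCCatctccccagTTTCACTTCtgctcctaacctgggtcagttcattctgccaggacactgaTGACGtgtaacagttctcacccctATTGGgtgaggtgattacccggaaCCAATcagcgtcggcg
H2-Q10: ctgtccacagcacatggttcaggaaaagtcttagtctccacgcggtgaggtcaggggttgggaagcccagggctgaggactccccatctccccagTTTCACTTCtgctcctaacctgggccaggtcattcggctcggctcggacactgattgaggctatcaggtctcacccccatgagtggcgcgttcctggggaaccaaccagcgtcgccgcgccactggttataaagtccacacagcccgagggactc
H2-T23: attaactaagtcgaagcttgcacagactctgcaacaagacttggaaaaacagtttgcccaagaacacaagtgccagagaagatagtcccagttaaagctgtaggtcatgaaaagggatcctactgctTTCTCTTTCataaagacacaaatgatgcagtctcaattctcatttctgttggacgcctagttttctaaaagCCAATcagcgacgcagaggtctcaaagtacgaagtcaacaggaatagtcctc

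Among all 32851 windows of this length in the table, GGGANTCCC was found in 0.636%, GAANNGAAA in 6.31%, GAAANNGAA in 7.13%, TGACG in 17.8% and CCAAT in 33.8%. Of the 7 windows matched, 5 held GAANNGAAA (H2-Q4, H2-Q6, H2-Q7, H2-Q10 and H2-M3) and 2 held GAAANNGAA (H2-T22 and H2-T23), and no window held both. The NF-kB letters were found in 2 of them, H2-Q6 and H2-Q7, and also in H2-D1. At the same place before the interferon core H2-Q4 reads gggatttccc, a close form that the shortened letters do not match. TGACG was found in 4 (H2-Q4, H2-Q7, H2-T22 and H2-M3) and CCAAT in 6, all but H2-Q10. In H2-Q4 TGACG lies after ATTGG, and in H2-T22 it lies after CCAAT, near the start site. In H2-D1 it lies before both, so the matches in H2-Q4 and H2-T22 are not at that place. The H2-Q10 window held the interferon core, but not the NF-kB letters, TGACG or CCAAT, although 82.0% of its bases were identical to the H2-D1 window in a global alignment. The H2-Q6 and H2-Q7 windows were also 82.0% identical, while those of H2-T22 and H2-T23 shared 47.2% of bases. A match describes the letters and is no evidence of a bound factor, and a missing match is no evidence that a site is absent.

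H2-Q10 was the most restricted of the 8 genes. In neutrophils it stood at 435, 417 and 410 CPM in IgG 1 to 3 and at 372, 435 and 422 CPM in anti-VSIG4 1 to 3. The 6 libraries lay close together, and both treatment groups overlapped. In the other tested classes the mean was between 13.6 CPM in tumour/epithelial cells and 31.8 ± 8.77 CPM (SD, n = 6) in T cells, the next in order. Neutrophils exceeded T cells in 6 of 6 libraries, by 3.71 ± 0.41 on the log2(CPM + 1) scale (SD, n = 6; exact two-sided sign-flip permutation p = 0.031, the smallest that 6 libraries can give, 0.281 adjusted over the neighbour pairs of the gene). After every cell was thinned to 1000 UMIs, 26.3% ± 1.82 of neutrophils and 3.33% ± 1.09 of T cells had an H2-Q10 UMI (35.0% and 10.02% without thinning, at median depths of 1581 and 3024 UMIs).

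The low H2-Q10 values outside neutrophils were set beside those of 5 other neutrophil genes, Csf3r, G0s2, S100a8, S100a9 and Retnlg. In T cells H2-Q10 was at 7.68% ± 2.15 of its neutrophil level, above all 5 of these genes, which ranged from 4.03% for the calprotectin gene S100a8 to 6.04% for G0s2. In fibroblasts H2-Q10 was at 3.41%, within the range from 2.34% for Retnlg to 5.27% for G0s2. In tumour/epithelial cells it was at 3.34%, within the range from 2.04% for S100a8 to 4.29% for G0s2. In both classes H2-Q10 lay below Csf3r and G0s2 and above the other 3 genes, so no expression of its own was read from the values in fibroblasts and tumour/epithelial cells. In the plasma cell class, which held neutrophil-type RNA, H2-Q10 was at 4.45%, below all 5 genes. These ranged from 4.93% for Csf3r to 80.5% for S100a8 and 154% for Retnlg. The values for Retnlg differed widely between libraries, from 0.631% to 575%, while H2-Q10 reached at most 8.39%. Neutrophil-type RNA with little H2-Q10 was thus present there. Cells left unnamed (1069 cells in 2 clusters) held 112 ± 19.97 CPM of H2-Q10, with Csf3r at 45.2% of its neutrophil level.

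H2-T23 (Qa-1) was found in all classes. Plasmacytoid dendritic cells, the class known for making type I interferon, had the highest values, with 1135, 1217 and 1004 CPM in the IgG libraries and 892, 892 and 1806 CPM in the anti-VSIG4 libraries. This class had as few as 9 cells in a library and was not tested, but all 6 of its values exceeded the highest value of any tested class, 562 CPM in migratory dendritic cells. Among tested classes the mean was 496 ± 55.3 CPM in migratory dendritic cells, between 385 and 410 CPM in neutrophils, cDC2, T cells, NK cells and monocyte/macrophages, and 240 CPM or less in endothelial cells, plasma cells, fibroblasts and tumour/epithelial cells (162 ± 30.4 CPM). The 5 classes in the middle did not differ from their neighbours in the order beyond the spread between libraries (exact p between 0.531 and 1). The step from monocyte/macrophages to endothelial cells was seen in 6 of 6 libraries (0.75 ± 0.42 on the log2 scale, exact p = 0.031, adjusted p = 0.281).

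H2-Q6 and H2-Q7 (Qa-2) were both highest in NK cells and lowest in tumour/epithelial cells. H2-Q6 measured 288, 393 and 338 CPM in NK cells of the IgG libraries and 257, 316 and 354 CPM in those of the anti-VSIG4 libraries, against 28.3, 26.6, 23.9, 28.2, 14.9 and 14.5 CPM in tumour/epithelial cells. Every NK value lay above every tumour value, and the mean ratio of NK cells to the next class, migratory dendritic cells at 222 ± 52.1 CPM, was 1.46. The steps from NK cells to migratory dendritic cells, from these to endothelial cells, from neutrophils to monocyte/macrophages and from plasma cells to tumour/epithelial cells each had the same direction in 6 of 6 libraries (exact p = 0.031, adjusted p = 0.0703). H2-Q7 averaged 435 ± 142 CPM in NK cells, 399 ± 143 CPM in migratory dendritic cells and 385 ± 116 CPM in T cells, which did not differ from one another beyond their spread, and 56.0 ± 16.1 CPM in tumour/epithelial cells. H2-Q4 had its highest mean in migratory dendritic cells (58.3 ± 67.4 CPM), a value set by IgG 3 at 193 CPM, since without that library endothelial cells were higher (ratio of 0.703). Its lowest mean was in cDC2, at 14.3 ± 5.06 CPM.

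H2-T22 was highest in T cells (138 ± 21.1 CPM), endothelial cells (135 ± 36.4 CPM) and NK cells (128 ± 13.1 CPM), and lowest in plasma cells (48.2 ± 13.7 CPM). The order of the first 3 was not resolved (exact p of 0.562 and 0.812). H2-M3 was low throughout, from 7.41 ± 2.69 CPM in tumour/epithelial cells and 8.93 ± 1.94 CPM in neutrophils to 35.8 ± 8.97 CPM in migratory dendritic cells, and no pair of neighbours reached the smallest possible p. Plasmacytoid dendritic cells, not tested, averaged 59.0 ± 35.3 CPM of H2-M3.

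Cd1d1 was concentrated in dendritic cells. Migratory dendritic cells had 62.7, 17.7 and 42.1 CPM in the IgG libraries and 57.8, 24.4 and 63.1 CPM in the anti-VSIG4 libraries, and cDC2 had 5.26, 9.70 and 24.1 and then 19.5, 12.3 and 16.7 CPM. Within each library the migratory cells were higher, by 1.54 ± 0.98 on the log2 scale (6 of 6 libraries, exact p = 0.031, adjusted p = 0.281). All other tested classes averaged 6.28 CPM or less, and in neutrophils only 22 UMIs of Cd1d1 were counted in 15140 cells. In plasmacytoid dendritic cells 0 UMIs were counted among the 768567 of the class.

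**Figure D1:**
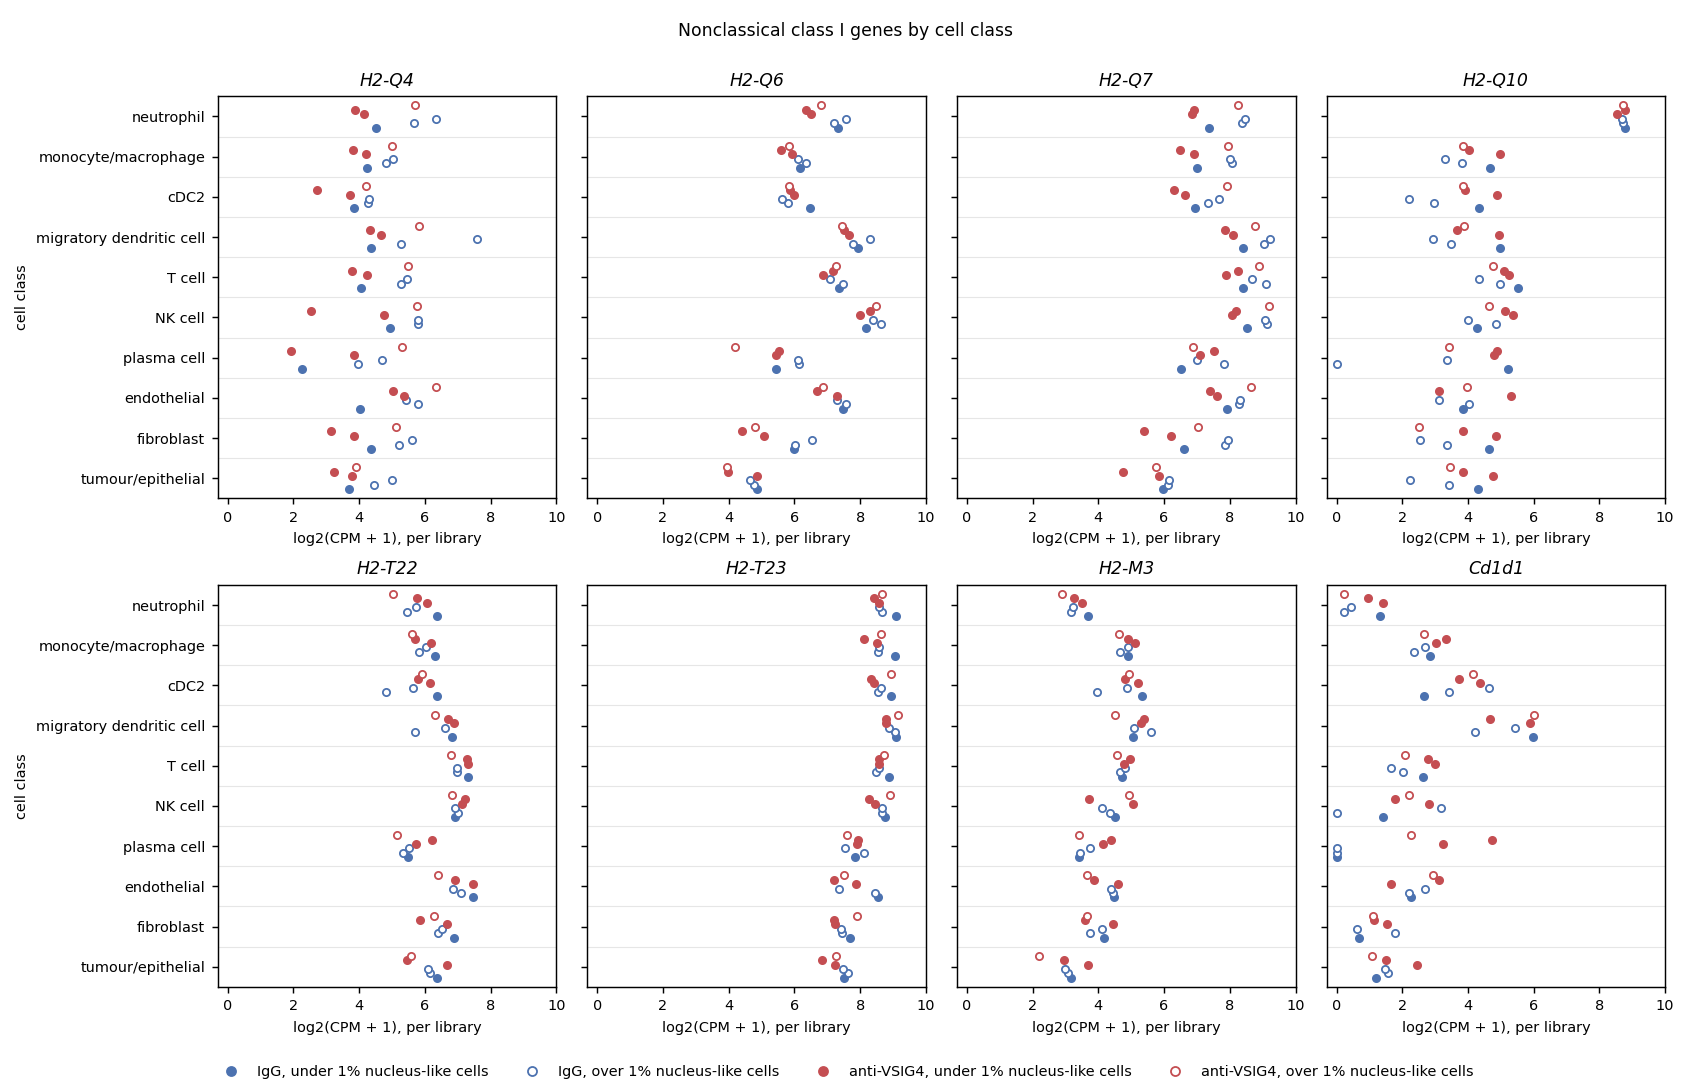
Level of each gene, as log2(CPM + 1) on the horizontal axis, in the 10 classes tested, with 1 point per library (IgG blue, anti-VSIG4 red, open symbols for the 3 libraries with over 1% nucleus-like cells). H2-Q10 sits near 415 CPM in neutrophils and between 13.6 and 31.8 CPM elsewhere, Cd1d1 is highest in migratory dendritic cells, and the open symbols lie to the right for H2-Q4 and H2-Q7.

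Profiles across the 13 named classes were compared with those of 9483 other genes by Pearson correlation of log2(mean CPM + 10), given as a description, since the classes come from the same libraries and differ in depth. The profile most like that of H2-Q10 was that of Csf3r (r = 0.98), followed by Gm28981, G0s2, Sag and Il36g (r from 0.97 to 0.98). For Cd1d1 it was Ccl22, a chemokine of migratory dendritic cells (r = 0.94). H2-Q6 and H2-Q7 were among each other's 3 most similar genes (r = 0.88), and they share 3′ sequence as given above. H2-T23 came closest to Tagap and to the interferon receptor subunit gene Ifnar1 (r = 0.91 for both), H2-T22 to Tmem234 (r = 0.92), H2-M3 to Phf11b (r = 0.93) and H2-Q4 to Pnisr (r = 0.89).

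Klrd1 and Klrc1, which encode CD94 and NKG2A, were highest in NK cells, at 171 ± 28.0 and 67.7 ± 12.8 CPM. The classical genes H2-K1 and H2-D1 were highest in NK cells too (3060 ± 352 and 2521 ± 430 CPM), and H2-K1 was lowest in fibroblasts (1188 ± 243 CPM) and H2-D1 in plasma cells. The lipid-loading genes Psap and Npc2, whose products act on the lipids that CD1d shows, were highest in monocyte/macrophages, and Gm2a in cDC2. Of the other nonclassical genes looked for, H2-M2 reached 20.01 ± 13.7 CPM in migratory dendritic cells, H2-T24 16.3 ± 3.99 CPM in plasma cells and Mr1 11.7 ± 6.52 CPM in fibroblasts. H2-Q1, H2-Q2, H2-T3, H2-M5 and H2-M9 each had 21 UMIs or fewer in all libraries together. H2-Q5, H2-Q8, H2-Q9, H2-T9, H2-T10 and Cd1d2 were not among the genes listed across the libraries.

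Neutrophils fell into 7 sub-clusters, again built without class I genes. Sub-clusters 5 (led by Tgtp1 and Gbp4) and 6 (led by Ifit1 and Ifit3), 791 cells together, are led by interferon-induced genes. H2-T23 stood at 807 ± 117 CPM in these cells and at 388 ± 70.0 CPM in the other 14349 neutrophils, and was higher in 6 of 6 libraries (ratios from 1.63 to 2.57). H2-T22 was higher in 6 of 6 libraries as well, at 110 ± 43.5 against 51.9 ± 16.5 CPM, as were H2-Q7 and B2m. H2-Q10 differed less, at 476 ± 73.6 against 412 ± 23.2 CPM, and was higher in 4 of 6 libraries. The other neutrophils were not low in interferon-induced genes throughout. Pooled Isg15 was at 15526 and 34352 CPM in sub-clusters 5 and 6. It was at 10702 and 13419 CPM in 2 and 3 and between 3046 and 5521 CPM in 0, 1 and 4. The split is therefore not one of high against low interferon-induced genes. Sub-clusters were built from the same cells, so these values are a description with no test.

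Within the neutrophils H2-Q10 also differed between sub-clusters not led by interferon-induced genes. In sub-cluster 2, led by Retnlg, which encodes a protein secreted by neutrophils, it measured 569, 649 and 566 CPM in the IgG libraries and 451, 658 and 516 CPM in the anti-VSIG4 libraries. In sub-cluster 0, led by the heat shock genes Hspa1a and Hspa1b, it measured 273, 308 and 249.9 CPM and then 243, 332 and 300.2 CPM. Sub-cluster 2 was higher in 6 of 6 libraries, and no value of one overlapped the other. It also held more of the interferon-induced gene Isg15 than sub-cluster 0 (10702 against 3046 CPM pooled). The part of this in the H2-Q10 values was not tested. Sub-cluster 3, also led by Retnlg, was less even, from 290.1 CPM in anti-VSIG4 2 to 619 CPM in IgG 3. H2-Q6 ran the other way, with 75.2 CPM in sub-cluster 2 and 141 CPM in sub-cluster 0 over all libraries pooled. Sub-clusters 3 and 4 came mostly from the 3 libraries with over 1% nucleus-like cells, and 1 and 2 mostly from the others.

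**Figure D2:**
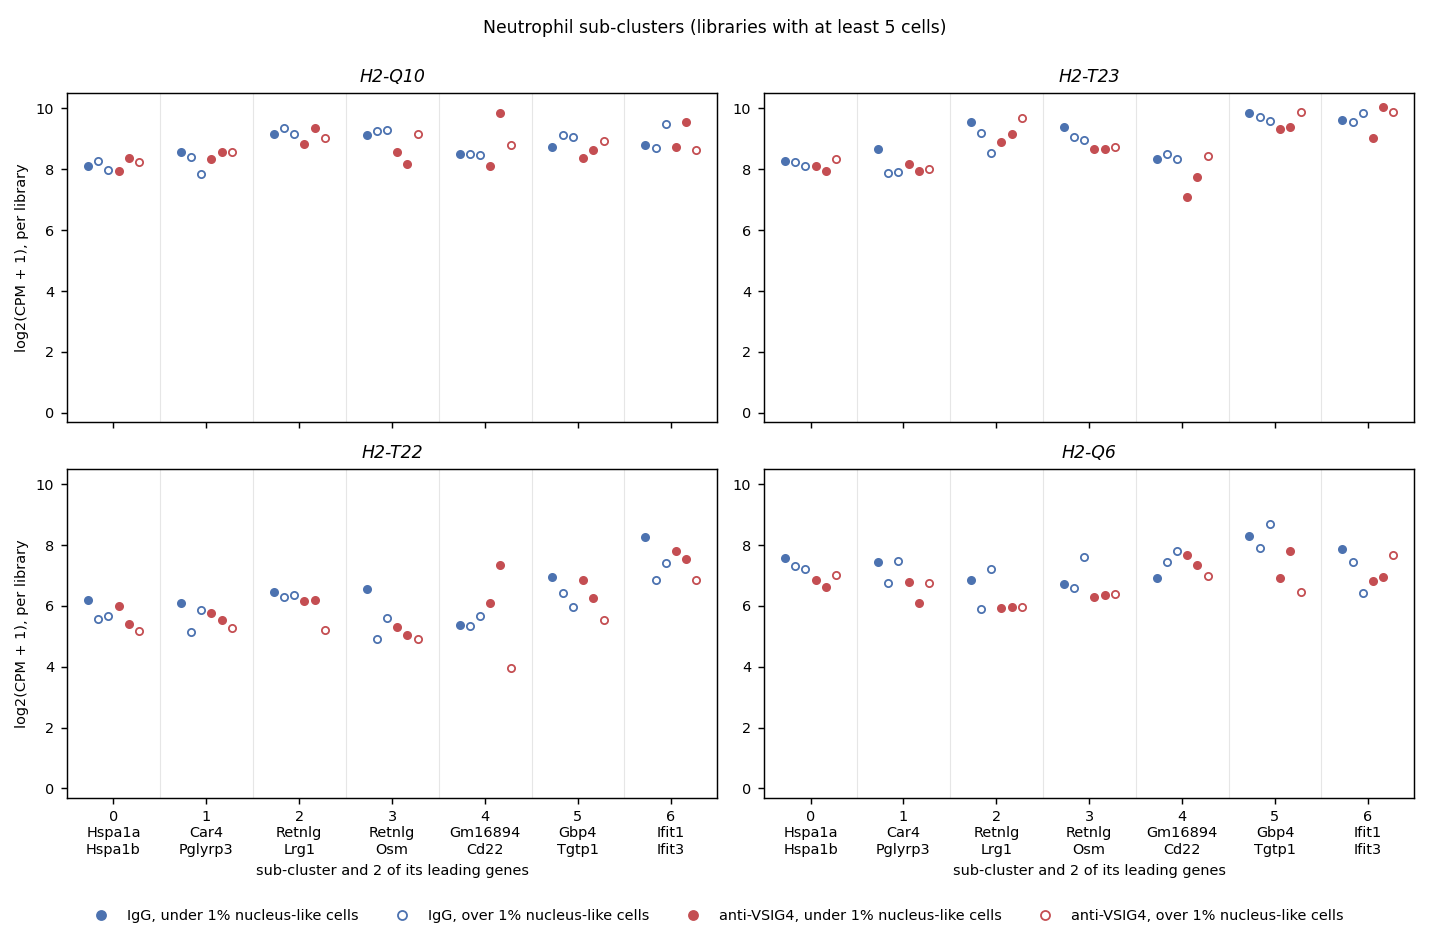
H2-Q10, H2-T23, H2-T22 and H2-Q6 in the 7 neutrophil sub-clusters (horizontal axis, with 2 leading genes each), as log2(CPM + 1) per library on the vertical axis, colours as in the plot of levels by class. H2-T23 is highest in sub-clusters 5 and 6 (829 and 762 CPM with libraries pooled), and H2-Q10 is higher in sub-cluster 2 than in sub-cluster 0 in 6 of 6 libraries.

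Anti-VSIG4 against IgG was tested per class on UMIs summed per library with edgeR's quasi-likelihood test and Benjamini-Hochberg adjustment over all genes of the class. Of 80 gene and class pairs 70 passed the filter on low counts, and 0 of these 70 were called at an adjusted p under 0.05, beside 0.00234% of all gene and class pairs. At an unadjusted p under 0.05 there were 8 pairs, all lower under anti-VSIG4, where 5.12% of all pairs reached that level and 2.83% did so as lower. These were H2-Q6 in fibroblasts, neutrophils, monocyte/macrophages, endothelial cells and plasma cells, H2-Q7 in fibroblasts, H2-Q4 in tumour/epithelial cells and H2-T23 in endothelial cells. DESeq2 called 1 pair, H2-Q6 in fibroblasts, beside 0.119% of all pairs. By direction alone 46 pairs were lower and 24 higher, where 50.5% of all pairs were lower.

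In fibroblasts H2-Q6 was lower under anti-VSIG4. It measured 62.7, 64.1 and 91.1 CPM in IgG 1 to 3 and 32.4, 20.1 and 26.9 CPM in anti-VSIG4 1 to 3. All 3 treated libraries lay below all 3 controls, a separation shared by 5.02% of the genes tested in fibroblasts. The means were 72.6 ± 16.0 and 26.5 ± 6.17 CPM (SD, n = 3 each), and the log2 change was -1.50 ± 0.26 (SE; edgeR adjusted p = 0.290 over 9606 genes). It did not pass the adjustment with edgeR, which called 0% of fibroblast genes (6.1% had an unadjusted p under 0.05), and it passed with DESeq2 (log2 change -1.50, adjusted p = 0.00908), which called 32 genes or 0.333%. It also passed with edgeR without the filter on low counts (adjusted p = 1.55e-04, 0.813% of genes called), with the replicate number as block (adjusted p = 0.0146, 0.489% called) and in the 3 libraries with under 1% nucleus-like cells (0.796% called), where the control arm is IgG 1 alone and is assumed to vary like the treated arm. The replicate numbers used as block were not shown to pair the mice. Over all alternatives the adjusted p ranged from 1.55e-04 to 0.753 and the log2 change from -1.66 to -1.33.

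H2-Q7 pointed the same way with more overlap. Its values were 96.7, 228 and 246 CPM in the IgG libraries and 73.5, 40.9 and 129 CPM in the anti-VSIG4 libraries. The treated library anti-VSIG4 3 lay above the control IgG 1, so the groups overlapped. The log2 change was -1.30 ± 0.46 (SE; edgeR adjusted p = 0.760), and it was -0.84 within the libraries with under 1% nucleus-like cells and -0.93 within the others, each with 1 library in one arm. H2-Q4 changed by -1.02 ± 0.51 (SE; edgeR adjusted p = 0.857), from 34.4 ± 14.1 to 18.4 ± 13.7 CPM, and its groups overlapped.

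The remaining genes differed less in fibroblasts. The log2 change was -0.37 ± 0.26 for H2-T22, -0.11 ± 0.35 for H2-M3, -0.07 ± 0.24 for H2-T23 and 0.25 ± 0.68 for H2-Q10, with edgeR adjusted p from 0.913 to 0.976. H2-T23 measured 204, 173 and 170 CPM in the IgG libraries and 149, 147 and 241 CPM in the anti-VSIG4 libraries. Cd1d1, with 11 UMIs in fibroblasts in all, was too low to test. Among the 7 genes tested 6 were lower, beside 49.5% of all fibroblast genes, and their median log2 change was -0.37 beside 0.00 for all genes.

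**Figure D3:**
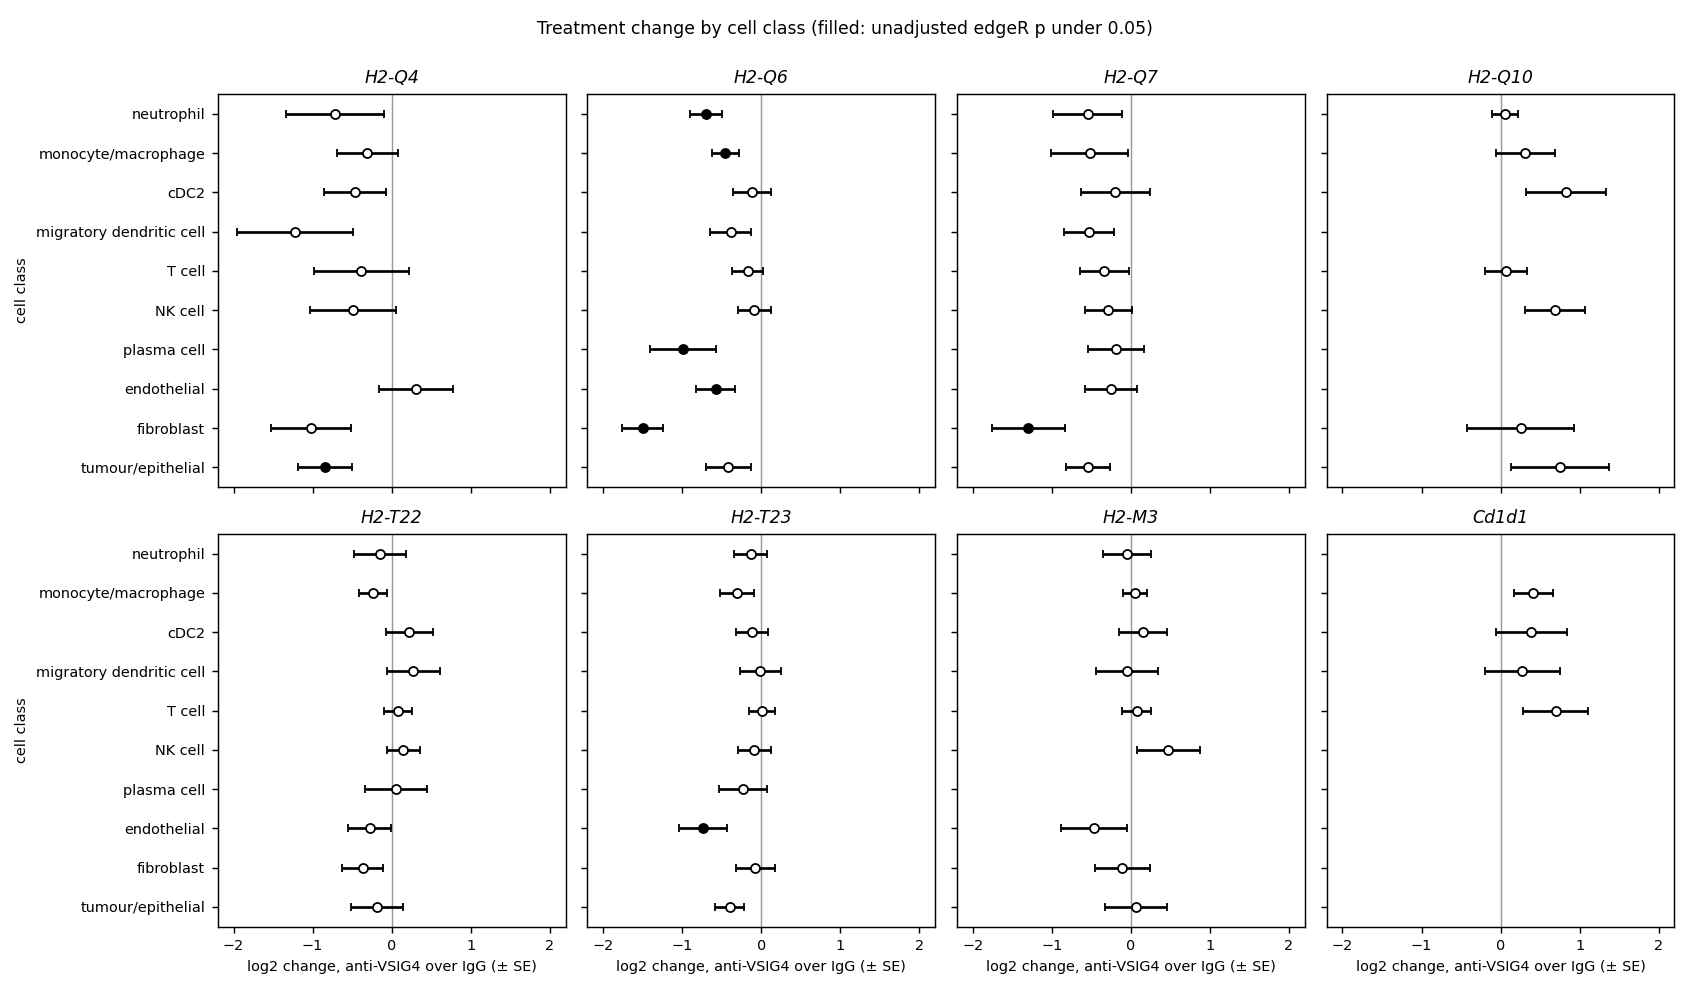
Log2 change of each gene, anti-VSIG4 over IgG, with its standard error on the horizontal axis and the classes on the vertical axis, for pairs that passed the filter on low counts (H2-Q10 in plasma cells, with a standard error of 8.51, is not drawn). Filled symbols have an unadjusted edgeR p under 0.05. Among the classes drawn, H2-Q6 lies furthest left in fibroblasts, at -1.50.

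The make-up of the fibroblast class differed between libraries. Sub-cluster 0, led by the mesothelial genes Msln and Upk3b, held 8.17%, 54.9% and 39.7% of fibroblast cells in IgG 1 to 3 and 2.38%, 7.69% and 31.5% in anti-VSIG4 1 to 3. It had H2-Q7 at 311 CPM pooled, against 49.99 to 83.9 CPM in sub-clusters 1 to 4, and H2-Q6 at 81.8 CPM against 29.6 to 49.2 CPM. Sub-cluster 2, led by Slpi and Ankrd1, had the lowest H2-Q6 of sub-clusters 1 to 4 (29.6 CPM) and made up 10.1%, 14.1% and 7.42% of the control fibroblasts and 25%, 39.0% and 27.8% of the treated ones, without overlap. Its part in the value was not tested. Sub-clusters 6 and 7, in which 6 and 7 of 7 T cell markers were raised, were mostly from IgG 3.

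The comparison was also made for parts of the class, a step added after the data were seen, which leaves the difference in sub-cluster 2 in place. In sub-clusters 1 to 4, 63.0% of the class, H2-Q6 measured 57.7, 52.5 and 61.1 CPM in the IgG libraries and 27.0, 18.2 and 25.5 CPM in the anti-VSIG4 libraries. The groups did not overlap, and the log2 change was -1.32 ± 0.28 (SE; edgeR adjusted p = 0.109, with 0.227% of 7478 genes called in this part). H2-Q7 measured 81.5, 98.6 and 102 CPM and then 69.6, 29.9 and 51.0 CPM there, also without overlap (log2 change -0.95 ± 0.31, edgeR adjusted p = 0.490). How many of all genes in this part separated in this way was not counted (5.02% did in the whole class). In the mesothelial-like sub-clusters 0 and 8 H2-Q6 measured 121, 73.6 and 119 CPM in the IgG libraries and 408, 34.4 and 30.5 CPM in the anti-VSIG4 libraries, with 408 CPM coming from 2 cells of anti-VSIG4 1. The groups overlapped, and the mean was higher under anti-VSIG4 (158 against 105 CPM) while the fitted log2 change was -1.12 ± 0.61 (edgeR adjusted p = 0.961, with 0.0298% of genes called), so no direction was read there. For H2-Q7 the change was -0.91 ± 0.45 (edgeR adjusted p = 0.934), also with overlap.

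**Figure D4:**
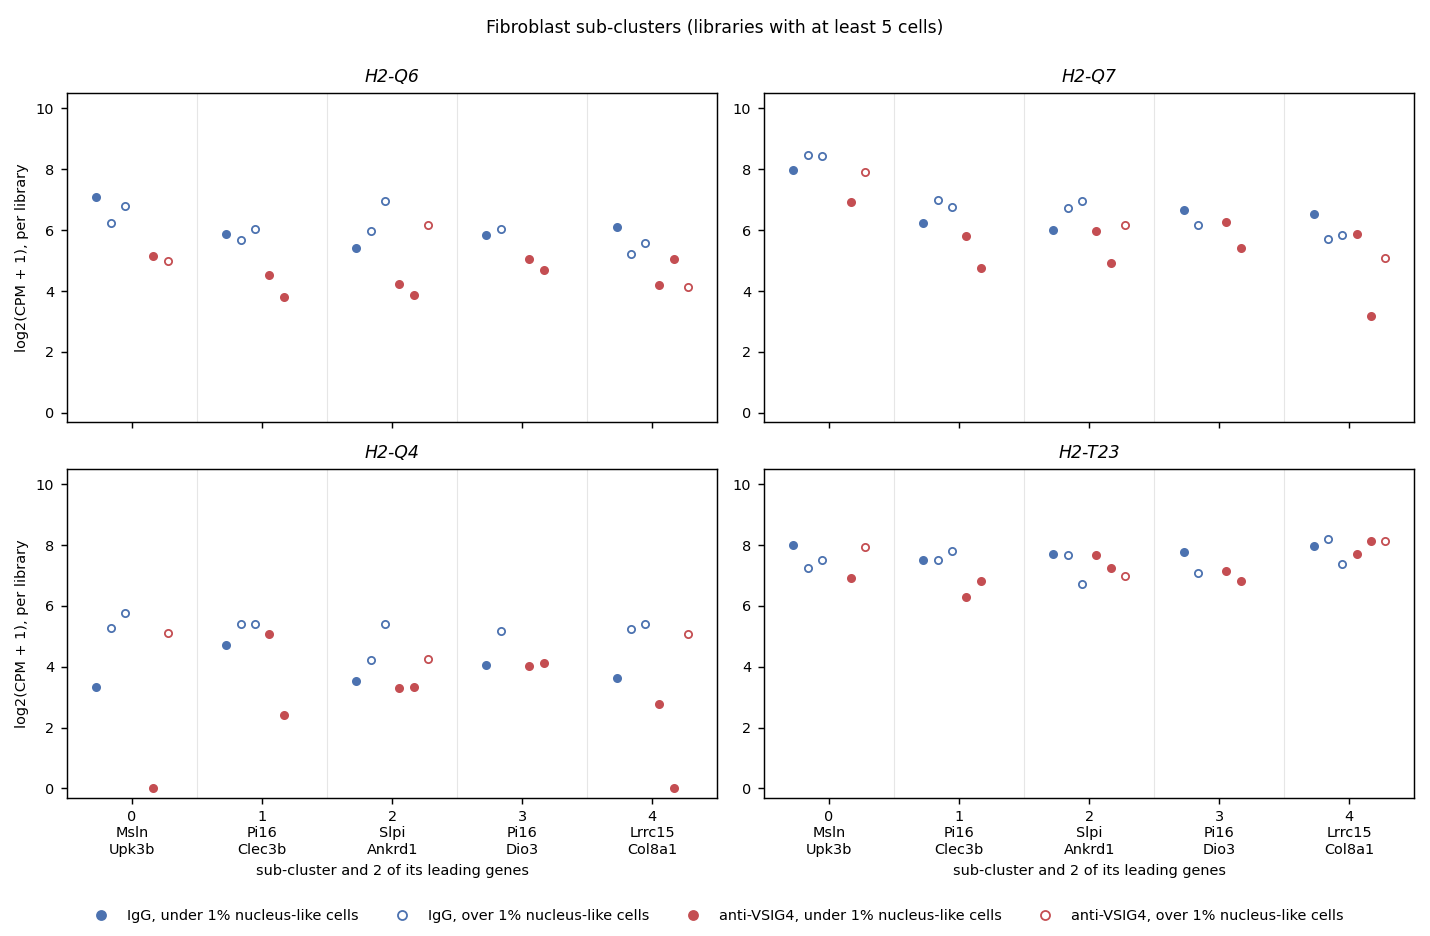
H2-Q6, H2-Q7, H2-Q4 and H2-T23 in fibroblast sub-clusters 0 to 4 (horizontal axis, with 2 leading genes each), as log2(CPM + 1) per library on the vertical axis, for libraries with at least 5 cells, colours as in the plot of levels by class. In sub-cluster 1 H2-Q6 lies between 49.9 and 64.4 CPM in IgG libraries and at 22 and 13 CPM in the anti-VSIG4 libraries shown, while in sub-cluster 2 the groups overlap (42.0 to 124 CPM against 13.8 to 71.7 CPM).

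Summed markers of most of the 25 marker lists overlapped between the groups in the fibroblast class. Those of the tumour/epithelial, NK cell, mast cell and fibroblast lists did not overlap. Summed tumour/epithelial markers (6 of 6 found) ranged from 284 to 1313 CPM in IgG and from 211 to 279 CPM in anti-VSIG4 libraries. NK cell markers (7 of 7 found) ranged from 9.25 to 24.3 CPM and from 29.6 to 38.6 CPM, and fibroblast markers (7 of 7 found) from 15857 to 21735 CPM and from 21798 to 25070 CPM. Mast cell markers, of which 1 was at 0 in every library, ranged from 1.62 to 8.52 CPM and from 9.36 to 17.1 CPM. Neutrophil markers (8 of 8 found) overlapped, at 437 to 2594 and 1002 to 3968 CPM. Monocyte/macrophage markers overlapped too, at 311 to 739 and 701 to 1048 CPM. None of the other markers in the lists given here was at 0 in every library. The part of any of these markers in the values of H2-Q6 was not tested.

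H2-Q6 was lower by log2 change in all 10 classes, although the sign turned under some alternatives in NK cells (up to 0.0493), T cells (up to 0.00861) and cDC2 (up to 0.18). The classes come from the same 6 libraries and are not independent. How many of all genes were lower in every class was not counted. Its libraries separated without overlap in 4 classes, fibroblasts, neutrophils, monocyte/macrophages and migratory dendritic cells (5.49% of all gene and class pairs did so). In neutrophils, monocyte/macrophages and migratory dendritic cells the share of genes with this separation was 9.24%, 3.74% and 10.6%. In neutrophils it measured 158, 146 and 190 CPM in the IgG libraries and 89.2, 80.6 and 111 CPM in the anti-VSIG4 libraries, a log2 change of -0.70 ± 0.20 (edgeR adjusted p = 0.801). In monocyte/macrophages the values were 71.5, 80.1 and 68.7 CPM and then 60.1, 46.9 and 55.8 CPM (log2 change -0.46 ± 0.17, edgeR adjusted p = 1). The change was -0.58 ± 0.24 in endothelial cells and -0.99 ± 0.41 in plasma cells, both with overlap, and -0.09 ± 0.21 in NK cells, where H2-Q6 was highest. All of these failed the adjustment.

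Whether the fibroblast change of H2-Q6 differed from that of other classes was tested as an interaction with the library as block. It was more negative in fibroblasts than in each of the other 9 tested classes, with differences between -1.46 and -0.56. The difference passed against NK cells (-1.46 ± 0.30, SE; edgeR adjusted p = 0.0171), a comparison in which 0.129% of 9330 genes were called. Against T cells it was -1.38 ± 0.30 (edgeR adjusted p = 0.0929) and against cDC2 -1.45 ± 0.34 (adjusted p = 0.155), which did not pass. This was the 1 call among the 8 genes in the 9 comparisons, beside 0.0499% of all genes in them. Without IgG 2, without IgG 3 or without anti-VSIG4 2 there were 0 calls, and without IgG 1 there were 5.

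H2-T23 in endothelial cells measured 369, 346 and 161 CPM and then 234, 146 and 182 CPM, with overlap (log2 change -0.74 ± 0.30, edgeR adjusted p = 0.943). In tumour/epithelial cells H2-Q4 measured 11.9, 20.7 and 30.7 CPM in the IgG libraries and 12.9, 8.37 and 13.9 CPM in the anti-VSIG4 libraries, with overlap (log2 change -0.84 ± 0.34, edgeR adjusted p = 0.999). H2-T23 and H2-Q7 in these cells lay lower in all 3 treated libraries, at 113 to 153 against 176 to 199 CPM and at 26.2 to 56.5 against 61.6 to 70.5 CPM, as did 4.79% of the genes tested there. H2-Q10 in neutrophils changed by 0.06 ± 0.16 (edgeR adjusted p = 0.963).

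Library kind moved with several of the genes. H2-Q7 was higher in every library with over 1% nucleus-like cells than in every library with less in 8 of 10 classes, and H2-Q4 in 9 of 9, beside 11.5% of all gene and class pairs. In neutrophils H2-Q7 measured 333, 355 and 303 CPM in the former and 166, 113 and 118 CPM in the latter. H2-Q10 was lower in the former in 6 of 8 classes and H2-T22 in 3 of 10, beside 15.3% of pairs. H2-Q6 and H2-T23 showed little of this, with 1 class higher and 1 lower for H2-Q6 and 0 for H2-T23. Since 2 of 3 controls and 1 of 3 treated libraries were of this kind, treatment and kind are partly confounded. The log2 change of H2-Q6 in fibroblasts was -1.33 within libraries under 1%, with 1 control, and -1.57 within the others, with 1 treated library. With kind as a covariate over all 6 libraries it was -1.43 and did not pass (edgeR adjusted p = 0.0631).

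Classical, peptide-loading and regulator genes of class I were mostly lower in fibroblasts, with 0 genes called by edgeR in any of them. All 3 of H2-K1, H2-D1 and B2m were lower (median log2 change -0.47), H2-D1 from 1128 ± 127 to 792 ± 183 CPM (edgeR adjusted p = 0.766). Of 13 peptide-loading genes 12 were lower (median -0.39), beside 49.5% of all fibroblast genes. Among the 13, 4 had an unadjusted edgeR p under 0.05, beside 6.1% of all fibroblast genes. These 4 include the transporter gene Tap2, from 107 ± 6.54 to 72.5 ± 6.57 CPM. Of 11 regulators of class I genes 10 were lower (median -0.43), including Irf1, from 233 ± 51.5 to 127 ± 50.9 CPM. All 9 type I interferon response genes tested were lower (median -1.20, 6 at an unadjusted p under 0.05), such as Isg15, from 994 ± 41.0 to 393 ± 153 CPM. Other classes moved this way too. Peptide-loading genes were lower for 13 of 13 in tumour/epithelial cells (median -0.41) and 12 of 13 in monocyte/macrophages (-0.13), but 6 of 12 in migratory dendritic cells. Interferon response genes were lower for 9 of 10 in endothelial cells (-0.85) and cDC2 (-0.49), but 1 of 7 in NK cells.

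Fibroblast state genes also differed in direction. All 10 inflammatory and universal fibroblast genes were lower (median -1.32), such as Pi16 from 525 ± 143 to 159 ± 67.2 CPM, and all 9 myofibroblastic genes higher (median 0.71), such as Tagln from 1158 ± 112 to 2474 ± 426 CPM, with 0 called in either list. The myofibroblastic rise was not particular to fibroblasts. It was seen in tumour/epithelial cells (5 of 6 genes, median 1.31), endothelial cells (4 of 5, median 1.54) and T cells (4 of 4, median 0.77). In NK cells, migratory dendritic cells and plasma cells the 1 gene tested was lower. The lipid-loading genes of CD1d did not share a direction (4 of 6 higher, median 0.12), and the 3 receptors of class I-like ligands tested in fibroblasts were higher (median 0.11). In NK cells, 5 of 7 such receptors were higher with 0 called (median 0.13), and in T cells 5 of 8.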

How the data were processed

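The authors deposited 1 table of UMI counts per mouse, genes in rows and cell barcodes in columns, with no barcode under 1000 UMIs. The counts were made with PISA 1.0, per the file headers, and the submitters' processing notes name STAR and Seurat 4.11 with no role. The sources used here name no genome build or gene annotation. Cells with at least 500 UMIs, 300 genes and at most 20% mitochondrial UMIs were kept and clustered with scanpy 1.11.5 (3000 variable genes, 40 components, 20 neighbours, Leiden resolution 1.0), class I genes left out. Classes were named from marker lists. The rules for the nucleus-like cells (over 15% of UMIs in genes over 100 kb) and for leaving mixed clusters unnamed were set after the data were seen. Scrublet called 0 doublets and was taken not to have worked, so the 6% of cells with the highest scores were left out as an alternative. UMIs were summed per class and library and tested with edgeR 4.0.16 (quasi-likelihood, TMM, filterByExpr), with DESeq2 1.42.0 as an alternative, in classes with at least 20 cells per library, and the scripts were tested on simulated data. P-values measure the spread between mice. Neighbouring classes were compared with an exact sign-flip test. The order of classes came from the mean CPM of the same libraries, so the pairs compared were chosen from the values tested. The genes named are the 8 members, and in each list the up to 4 genes with the smallest p among those with a mean of at least 20 CPM, and the 5 genes most like each member. Receptor, lipid-loading and other nonclassical genes whose levels by class are given were chosen after their values were seen, and the NF-kB and interferon motifs were shortened to 9 letters after a first search with longer forms. The members and lists were chosen with earlier results of these data known.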

Additional observations from a re-analysis of the deposited data

Results flagged for a closer look

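The log2 change of H2-Q6 under anti-VSIG4 in fibroblasts minus that in NK cells was -1.46, and an interaction test of that difference passed in edgeR (adjusted p = 0.0171). NK cells held the highest level of H2-Q6 (324 ± 48.3 CPM, SD, n = 6) and their groups overlapped, while the fibroblast groups did not. The call was lost without IgG 2, without IgG 3 or without anti-VSIG4 2. H2-Q6 shares 3′ sequence with H2-Q7, whose difference was -0.99 and did not pass (edgeR adjusted p = 0.158).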

How the results depend on the processing

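With edgeR 0 members were called in any class (8 gene and class pairs had an unadjusted p under 0.05). In fibroblasts, and over all classes, the number called was 1 with DESeq2, 2 without the filter on low counts, 1 with the replicate block and 1 in the libraries under 1% nucleus-like (IgG 1 alone as control, assumed to vary like the treated arm), being H2-Q6 each time and H2-Q7 as well without the filter. The interaction count of 1 became 5 without the filter and 0 to 5 when single libraries were left out. The cause of these shifts was not tested. Whether the replicate numbers pair the mice was not settled. In fibroblasts the deviations of same-numbered libraries correlated at 0.28, -0.02 and 0.25, and those of differently numbered ones at -0.33 to 0.13. In every class tested IgG 2 correlated negatively with anti-VSIG4 2 and positively with anti-VSIG4 3, at -0.22 and 0.45 in neutrophils. IgG 2 and anti-VSIG4 3 both had over 1% nucleus-like cells. The replicate numbers were therefore not shown to pair the mice, and the block rests on them. The block gave H2-Q6 a log2 change of -1.49.

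For 28 single-gene changes under 430 alternatives, 396 kept direction and side of the threshold, 5 newly passed and 29 changed sign, mostly in values near 0. Leaving out single libraries gave -0.198 to 0.0493 for H2-Q6 in NK cells, with 0.0416 without IgG 2, and -0.29 to 0.18 in cDC2. It gave -0.859 to 0.0826 for H2-Q7 in cDC2, with 0.00924 without anti-VSIG4 1, and -0.33 to 0.14 in plasma cells. In fibroblasts it gave -0.39 to 1.10 for H2-Q10 (-0.17 without IgG 3), -0.337 to 0.0489 for H2-T23 (0.0219 without IgG 1, 0.0280 without anti-VSIG4 2) and -0.442 to 0.0602 for H2-M3 (0.00141 without anti-VSIG4 3). With library kind as covariate, H2-Q6 in NK cells was 0.0187, H2-Q7 in cDC2 0.0121 and H2-Q10 in fibroblasts -0.39. In the libraries under 1% nucleus-like, H2-Q6 in NK cells was 0.0185, H2-Q7 in plasma cells 0.37, H2-Q10 in fibroblasts -0.31 and H2-Q10 in neutrophils -0.0750. In those over 1%, H2-Q6 was 0.0267 in NK cells, 0.00861 in T cells and 0.12 in cDC2. H2-Q7 was 0.18 in NK cells, 9.58e-05 in T cells, 0.41 in cDC2 and 0.36 in endothelial cells. H2-Q10 was -0.63 and H2-T23 0.44 in fibroblasts.

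The ratio of H2-Q10 between neutrophils and T cells was 7.89 by thinned shares of cells, against 13.04 by CPM. The first place of H2-T22 was not stable: T cells over endothelial cells gave 1.02, then 0.942 by thinned shares, 0.989 without the highest doublet scores and 0.978 to 1.06 when single libraries were left out. For H2-Q4, migratory dendritic over endothelial cells gave 0.703 to 1.60 in the same way. Low counts limit H2-M3, Cd1d1 and, in fibroblasts, H2-Q10.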
